A study of Mus musculus with 6 samples.

Results

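The transcripts described here are those of 45 mouse cell cycle genes, followed through marker-gated classes of cells in 6 single-cell RNA libraries. The genes were taken by name, and all 45 were found among the 31053 genes that the libraries list. By role they comprise 6 genes of replication licensing (Mcm2 to Mcm7), 5 of DNA precursors and the replication clamp, 10 cyclins and kinases, 2 of the anaphase-promoting complex, 6 of the centromere and kinetochore, 10 of the spindle and cytokinesis, 4 of chromosome structure, and 2 others, Mki67 and Cdca3. The readouts are the level of each gene in the summed counts of a class and the share of cells in which 3 or more of the 45 were detected, after each cell was thinned to 1000 UMIs (unique molecular identifiers, which count RNA molecules).

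All 6 libraries came from mice of the genotype Tbx18CreER/+;Rosa26tdT/+, in which tamoxifen, injected for 4 days, switches on tdTomato, a red fluorescent protein, where Tbx18 is expressed, the gene of a transcription factor of pericytes and vascular smooth muscle. Every library, the sham ones included, therefore carries the CreER allele, the reporter and the tamoxifen treatment, and a washout period followed the injections. In the heart, sham surgery (ventricles) was set against ligation of the left anterior descending (LAD) artery, which was sampled in the infarct of the left ventricle and in the peri-infarct area without the atria. In the brain, sham surgery was set against a photothrombotic (PT) stroke, sampled in the necrotic core of the infarct and in the peri-infarct area, from dissected cortex. Cells were sorted for tdTomato and 1 library was made per group, so no difference below has a replicate check, no p-value is given, and every interval covers counting error only. The labels state neither the age of the mice, nor the time after injury, nor how many animals were pooled. The tdTomato transcript was not analysed here.

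A dividing cell copies its DNA in S phase and separates the copies in mitosis, and most of these genes are transcribed only around the phase in which their product works. The MCM helicase and the enzymes of nucleotide supply are used in S phase, whereas cyclin B with CDK1, the kinetochore, the spindle motors and the anaphase-promoting complex act in G2 and mitosis. E2F factors are known to switch on S phase genes, and the MuvB complex with B-MYB and FOXM1 to switch on the late genes. The promoters of late genes often carry elements called CHR and CCAAT boxes. In healthy adult heart and brain, stromal and vascular cells divide rarely, and they are known to re-enter the cycle after infarction or stroke.

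The promoters of 6 members are shown because they carry the elements by which S phase and late genes are usually told apart, and roles order the levels below. Each is the 160 bases before the RefSeq start of the gene (159 for Ube2c, whose window stops just short of that start). Each is written 5′ to 3′ on the strand of the gene, on build GRCm38.p6 (mm10). The annotated gene begins elsewhere in several: its first 9, 30 and 26 bases lie inside the windows of Cdc20, Ube2c and Cdk1, and it begins 41 and 60 bases past the RefSeq start in Mcm6 and Mcm5. Capitals mark 3 kinds of motif, searched on both strands. A CHR was taken as TTTGAA, which reads TTCAAA on the other strand, with TTTAAA accepted as a variant that reads the same on both strands. A CCAAT box is named by its letters and reads ATTGG on the other strand. An E2F-type site was taken as any of 4 words, TTTCCCGC, TTTGGCGC, TTCCCGCC and TTTCGCGC. The windows lie at chr4:118437344-118437503 on the minus strand (Cdc20, an activator of the anaphase-promoting complex), chr2:164769769-164769927 on the plus strand (Ube2c, its ubiquitin-conjugating enzyme), chr11:99024190-99024349 on the minus strand (Top2a, topoisomerase II alpha), chr10:69352913-69353072 on the minus strand (Cdk1, the mitotic kinase), chr1:128359706-128359865 on the minus strand (Mcm6) and chr8:75109349-75109508 on the plus strand (Mcm5).
Cdc20: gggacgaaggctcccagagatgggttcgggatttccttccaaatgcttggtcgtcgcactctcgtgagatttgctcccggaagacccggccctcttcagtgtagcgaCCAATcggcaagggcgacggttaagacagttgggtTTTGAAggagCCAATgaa
Ube2c: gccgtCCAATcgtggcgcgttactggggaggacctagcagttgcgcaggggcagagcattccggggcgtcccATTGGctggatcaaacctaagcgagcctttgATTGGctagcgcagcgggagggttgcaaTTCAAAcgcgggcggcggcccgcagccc
Top2a: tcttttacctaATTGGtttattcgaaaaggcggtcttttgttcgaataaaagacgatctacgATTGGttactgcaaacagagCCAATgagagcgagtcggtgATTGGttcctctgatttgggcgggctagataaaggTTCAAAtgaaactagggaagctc
Cdk1: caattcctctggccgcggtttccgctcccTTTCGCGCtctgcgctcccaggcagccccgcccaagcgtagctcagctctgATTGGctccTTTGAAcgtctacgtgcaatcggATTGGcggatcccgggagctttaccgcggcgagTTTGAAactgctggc
Mcm6: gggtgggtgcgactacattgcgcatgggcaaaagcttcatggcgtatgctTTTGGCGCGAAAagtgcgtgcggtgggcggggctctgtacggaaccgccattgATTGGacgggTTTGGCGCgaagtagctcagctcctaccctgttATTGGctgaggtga
Mcm5: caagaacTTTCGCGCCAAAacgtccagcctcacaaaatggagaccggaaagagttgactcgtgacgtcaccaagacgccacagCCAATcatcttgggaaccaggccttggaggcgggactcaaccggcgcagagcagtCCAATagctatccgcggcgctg

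The first 4 windows, all of genes outside replication, each hold a CHR within 50 bases of the RefSeq start together with CCAAT boxes. In Mcm6 and Mcm5, subunits of the replicative helicase, the printed windows hold E2F-type sites and CCAAT boxes and no CHR. In both of them a pair of E2F-type sites on opposite strands overlaps. RefSeq promoter windows (250 bases before the start and 50 after it) were matched for 37 of the 45 members, in 39 entries. Aurkb, Ccna2, Kif20a, Mcm4, Pbk, Smc4, Stmn1 and Tpx2 had no entry. Over the whole window a CHR was found in 76.9% of the member entries and in 27.6% of all 32851 promoters, a CCAAT box in 87.2% against 37.4%, and an E2F-type site in 15.4% against 3.49%. By role, E2F-type letters were in 45.5% of the 11 entries of replication licensing and precursors and in 3.57% of the 28 other entries, of which the 1 is Cdk1. A CHR was in 36.4% of the former and 92.9% of the latter, and in 27.3% and 53.6% when the search was limited to the 250 bases before the start, where 25.2% of all promoters held one. These are matches of letters and describe neither bound factors nor a cause of the levels below.

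The libraries held 2368 to 17951 barcodes and 11796570 to 107892408 UMIs. After filters on genes and mitochondrial UMIs, 2071 to 13630 cells were kept, with a median of 1408 UMIs in heart sham and of 2944 to 26159 in the other 5 libraries. Because heart sham was so shallow, 22.96% of its kept cells had fewer than 1000 UMIs and were left out of the thinned shares, against at most 2.08% elsewhere. A cell was put in the class whose summed markers stood furthest above a level set for that class and organ. It was left out as mixed when a second class also passed its level and stood, relative to that level, at 0.5 or more of the first. Fibroblast markers did not make mesothelial-like or arachnoid-like cells mixed, and such cells kept their class. Cells of a class can thus also pass the level of another. Classes are called after their markers only (fibroblast-like and so on). Heart sham cells also carried more RNA of other classes: endothelial markers summed to 967 CPM (counts scaled to a total of 1000000) in its fibroblast-like cells, against 123 CPM in infarct and 227 CPM in peri-infarct, and 26.6% of its kept cells were left out as mixed, against 0.966% to 7.42% elsewhere. The part of this in the results was not tested. Any pair of libraries shared 24 to 204 cell barcodes, and shared barcodes made up 0.983% to 7.48% of the kept cells of a library. Results that moved without them are given both ways.

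In the heart, the share of cells with 3 or more members was higher after ligation than after sham surgery in every class that could be compared. In fibroblast-like cells it was 0.394% in sham (95% Clopper-Pearson interval 0.2497% to 0.590%, 5843 cells), 6.23% in infarct (5.63% to 6.87%, 5986 cells) and 5.87% in peri-infarct (5.22% to 6.58%, 4786 cells). In pericyte-like cells it was 0 of 107 in sham, which allows a share of up to 2.80% (here and below the limit beside a count of 0 is 3 cells of the total, not the upper Clopper-Pearson bound), then 5.14% in infarct (3.79% to 6.80%) and 8.10% in peri-infarct (5.88% to 10.8%). In smooth-muscle-like cells it was 0.159%, 7.83% (5.38% to 10.9%) and 2.31% (0.934% to 4.70%) in the same order. Smooth-muscle-like cells thus had their higher share in the infarct, and pericyte-like cells in the peri-infarct area, with intervals that overlap for the pericyte-like cells and do not for the smooth-muscle-like cells. Mesothelial-like cells, marked by genes of the epicardium, had 0.483%, 11.5% and 9.88%. Endothelial-like cells had 1.95%, 4.56% and 8.70%, and of these the sham and infarct intervals overlap (0.718% to 4.19% and 2.38% to 7.83%). Macrophage-like cells had 4.21% in infarct and 6.67% in peri-infarct, and sham held only 4 such cells.

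In the brain, the higher shares lay in the infarct core. Fibroblast-like cells had 0.592% in sham (0.0717% to 2.12%, 338 cells), 26.1% in infarct (23.8% to 28.5%, 1352 cells) and 0.539% in peri-infarct (0.0654% to 1.93%, 371 cells). The infarct value is the highest of any gated class and library with 50 or more cells. The gate level was 30 UMIs of fibroblast markers per 10000 in brain and 100 in heart, so the classes of the organs were not gated alike. Without shared barcodes it was 23.5%, and the peri-infarct count went from 2 of 371 cells to 0 of 277, which allows up to 1.08%. Pericyte-like cells had 0.629% (0.288% to 1.19%), 3.09% (1.61% to 5.34%) and 0.888% (0.407% to 1.68%). Macrophage-like cells had 12.3% in infarct (7.20% to 19.2%) and 3.92% in peri-infarct (0.478% to 13.5%), from 51 cells in the latter. Endothelial-like cells had 0.984%, 1.14% and 1.61%, with intervals that overlap throughout. Smooth-muscle-like cells had 0 of 170 in sham and 0 of 104 in peri-infarct, which allow up to 1.76% and 2.88%, and the infarct held 3 such cells.

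Among the thinned cells, a stricter count of 5 or more members gave none in any of the gated classes of either sham library. Of these classes, heart fibroblast-like cells set the tightest limit, at 0.0513%. This covers thinned cells only: a heart sham fibroblast-like cell too shallow for thinning held 9 members in 836 UMIs. In the injured tissue 4.49% and 4.70% of heart fibroblast-like cells (infarct, peri-infarct) and 18.1% of brain infarct fibroblast-like cells reached 5. Thinning mattered for the size of the shares: without it, 1.78%, 59.99% and 43.3% of heart fibroblast-like cells and 92.0% of brain infarct fibroblast-like cells had 3 or more members, at median depths of 1433, 12238, 10102 and 34772 UMIs. Every class sampled here can divide, so none serves as a blank for free RNA.

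**Figure D1:**
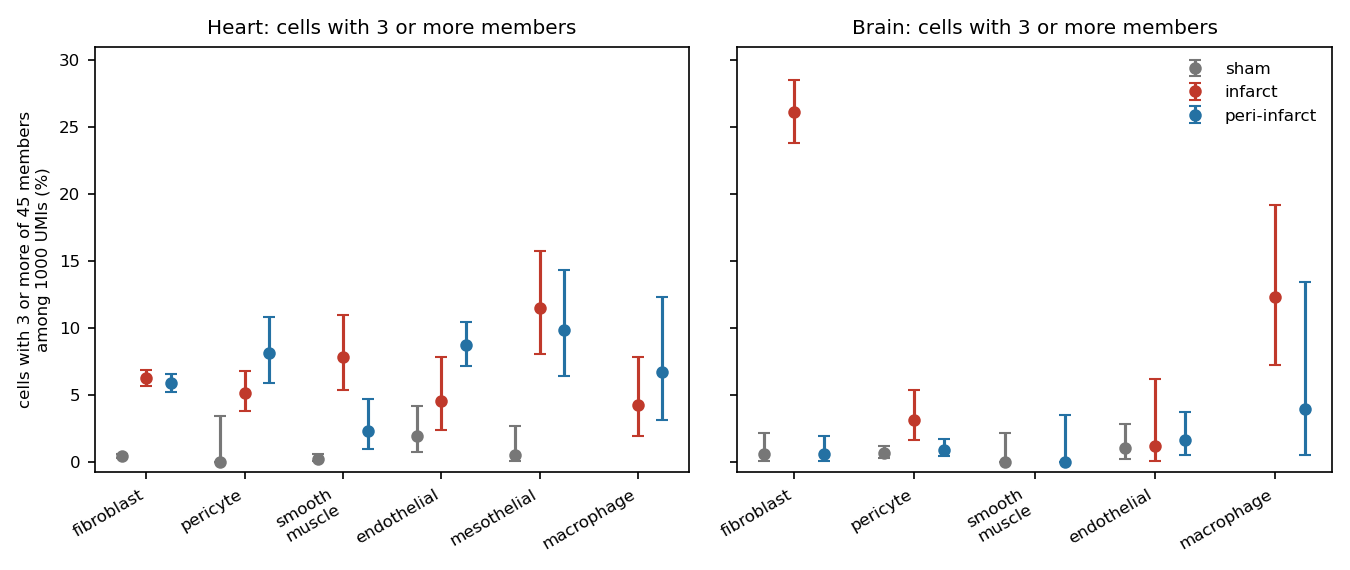
Share of cells (percent, y axis) in which 3 or more of the 45 members were detected after thinning to 1000 UMIs, by marker-gated class (x axis) and library (colour), with 1 library per group. Points are shares and bars are exact 95% binomial intervals that cover counting error only; brain infarct fibroblast-like cells stand at 26.1%, and the sham classes stand at or below 1.95%.

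For the levels, the UMIs of each class and library were added up and scaled to CPM, and a gene was counted as higher or lower when its ratio of (CPM + 1) between 2 libraries was at least 2-fold. Such ratios understate the change of low genes. A member with no UMI in 1 library has a ratio that depends on the added 1, so counts and medians are also given with those members at the bound that a floor of 3 UMIs per library allows. As background, the same count over every gene whose mean reached 10 CPM is given as a percent in each comparison. The member counts are over all 45, with no such filter, and fewer members reach that mean, so where few do the background is not matched to the members in level. Log2 values below are differences on the log2(CPM + 1) scale for single members and of the summed CPM for sums.

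Heart fibroblast-like cells had a summed level of the 45 members of 305 CPM in sham (Poisson interval 296 to 315), 1269 CPM in infarct (1261 to 1276) and 1845 CPM in peri-infarct (1834 to 1856), from 7513, 5994 and 4796 cells. That is 4.16-fold and 6.05-fold above sham. Of the 45 members 39 were at least 2-fold higher in infarct than in sham and 40 in peri-infarct, and none was 2-fold lower. The background was 6.13% of 8351 genes and 3.16% of 8424 genes. At their bounds the counts stayed at 39 and 40, and 25 and 35 members passed the filter on the mean. The median member differed by 2.86 and 3.52, and by 3.05 and 3.66 with bounds, against 0.01 and 0.10 for all tested genes. The log2 difference of the peri-infarct sum, 2.60, was 1.48 with the highest UMI totals left out, 1.81 as a mean over cells and 1.84 with thinned cells.

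The role sums of these cells differed from sham by unlike factors, with members that crossed the roles. All 10 cyclins and kinases were higher in both areas, and as a group they stood at 2.57, 133 and 210 CPM, 51.6-fold and 81.8-fold above sham. Cdk1, the kinase that starts mitosis, stood at 1.01, 33.4 and 52.2 CPM in sham, infarct and peri-infarct. Ccnb1, its cyclin B1 partner, had 0, 1314 and 1442 UMIs, or 0, 16.0 and 25.0 CPM, so it was at least 68.6-fold and 107-fold higher than the floor of sham. Aurkb, Bub1, Plk1 and Pbk, all mitotic kinases or close to them, also had no UMI in sham, where 7513 cells were summed. Ube2c and Cdc20 together stood at 2.73, 70.7 and 124 CPM. Ube2c stood at 0.701, 49.8 and 90.3 CPM, and was 71.0-fold higher in infarct (interval 37.4 to 155).

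The 6 centromere and kinetochore members and the 10 of the spindle and cytokinesis were all higher in both areas. The first group summed to 14.6, 192 and 282 CPM and the second to 32.6, 277 and 456 CPM. Birc5 (survivin, of the chromosomal passenger complex) stood at 0.311, 38.5 and 52.0 CPM and Cenpf, a kinetochore protein, at 1.17, 47.7 and 83.3 CPM. Hmmr, a spindle protein, stood at 0.234, 21.5 and 30.7 CPM, from 3 UMIs in sham. Mki67, which coats mitotic chromosomes and is the common marker of dividing cells, stood at 0.545, 46.2 and 74.4 CPM, 84.8-fold (41.1 to 211) and 136-fold (66.2 to 340) above sham. Top2a, which untangles DNA, stood at 1.40, 51.5 and 92.1 CPM.

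Replication licensing summed to 46.5, 82.8 and 99.9 CPM, 1.78-fold and 2.15-fold above sham, with 3 and 4 of its 6 members called higher. Mcm5 stood at 2.34, 9.67 and 13.3 CPM, Mcm2 at 1.17, 8.498 and 9.78 CPM and Mcm6 at 7.63, 20.1 and 21.2 CPM. Mcm4, of the same helicase, stood at 16.1, 13.8 and 16.7 CPM, and Pcna, the sliding clamp of DNA polymerase, at 15.4, 13.6 and 18.7 CPM. Both had sham levels as high as those of injured tissue, within 0.26 on the log2 scale. Of the precursor enzymes, Rrm2, the cell-cycle-regulated subunit of ribonucleotide reductase, stood at 3.11, 13.9 and 21.3 CPM, whereas its partner Rrm1 stood at 33.8, 37.0 and 41.7 CPM. Tk1, thymidine kinase, stood at 0.467, 14.0 and 19.6 CPM. Smc4, a condensin subunit, stood at 45.6, 104 and 117 CPM. Stmn1 (stathmin, a microtubule regulator) stood at 21.5, 109 and 182 CPM and Hmgb2, a chromatin protein, at 78.3, 104 and 144 CPM. By the rule for named genes, the largest log2 differences in infarct were of Mki67 (4.93), Birc5 (4.91), Ube2c (4.90), Cenpf (4.49), Top2a (4.45) and Hmmr (4.19) and the smallest of Mcm7 (0.38), Rrm1 (0.13), Pcna (−0.17) and Mcm4 (−0.21). In peri-infarct the same rule gave Ube2c (5.75), Mki67 (5.61), Birc5 (5.34), Cenpf (5.28), Top2a (5.28) and Prc1 (4.74) against Mcm7 (0.69), Rrm1 (0.29), Pcna (0.26) and Mcm4 (0.05).

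Between the areas, 44 of the 45 members had a lower level in infarct than in peri-infarct, and the sum was 0.688-fold (0.682 to 0.693). Only Pbk, a mitotic kinase, was 2-fold lower, at 11.0 against 25.4 CPM, beside a background of 1.33%. Tyms, thymidylate synthase, was the 1 member with the higher level in infarct, at 72.8 against 59.4 CPM. The order of the sums was reversed when the cells with the highest UMI totals were left out (log2 0.14 in place of −0.54), and the share of cells with 3 or more members had the opposite order to begin with. The order of the areas in fibroblast-like cells thus depended on the measure.

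**Figure D2:**
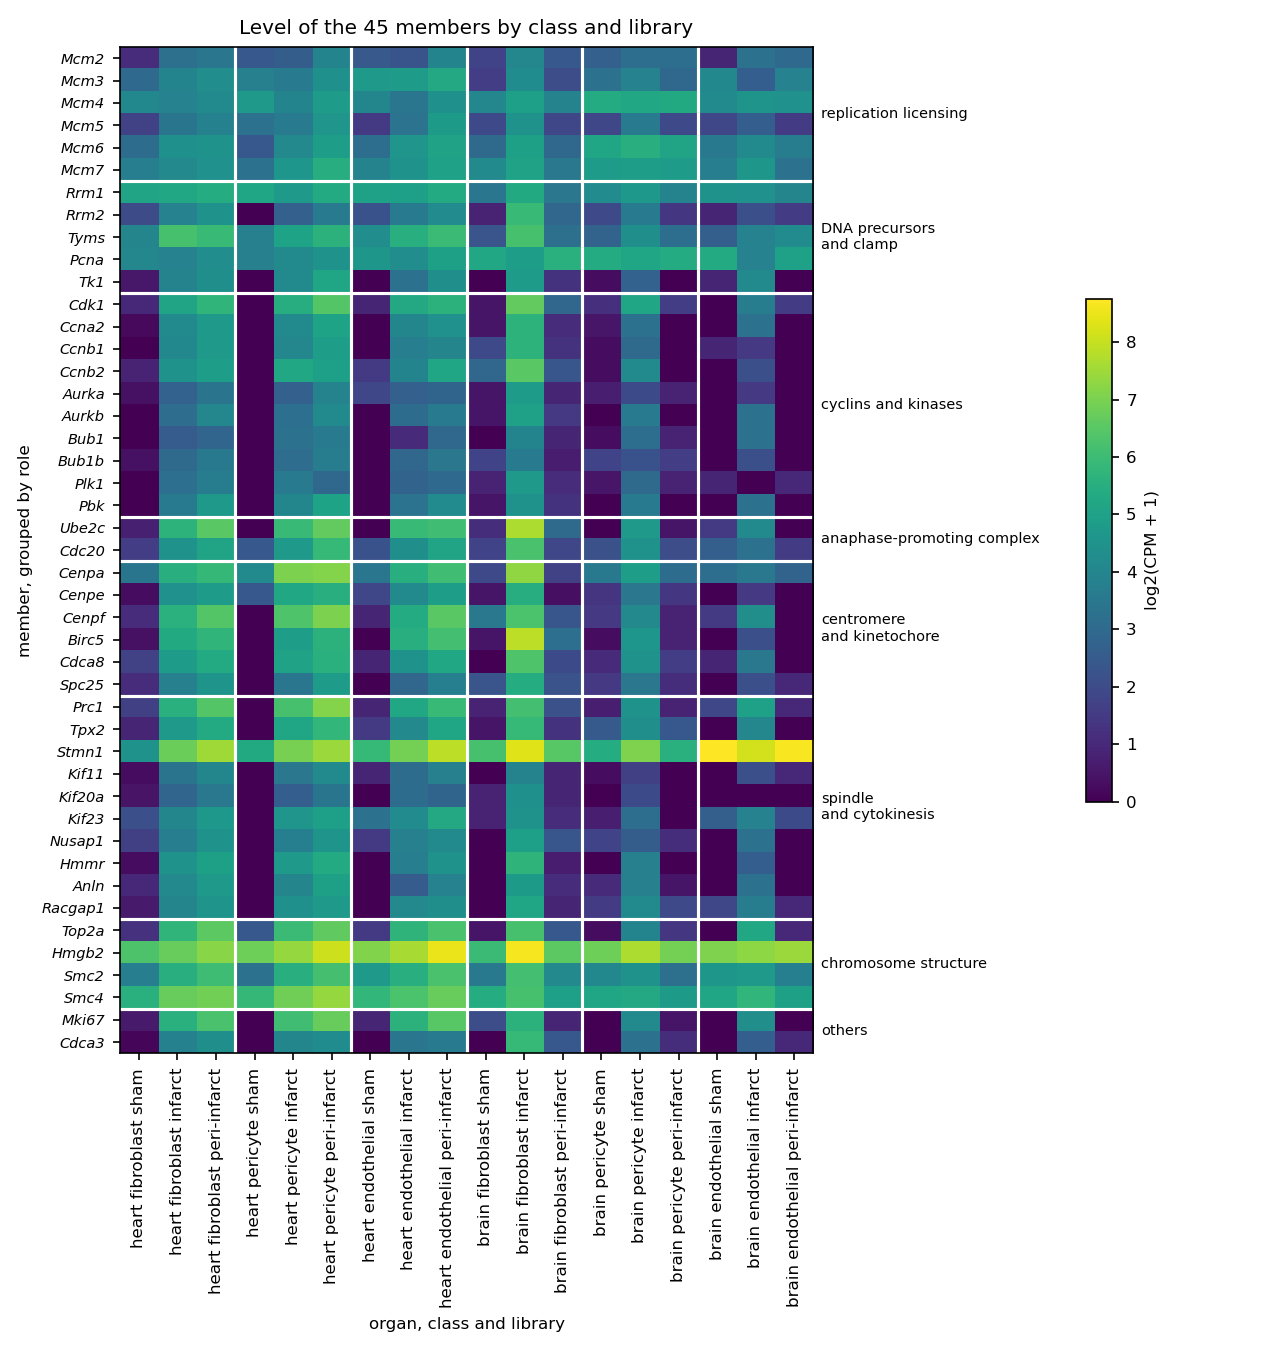
Level of each of the 45 members (rows, grouped by role) as log2(CPM + 1) of the summed UMIs in 6 combinations of organ and class with their sham, infarct and peri-infarct libraries (columns). Most cyclins, kinases, centromere and spindle members are low in the sham columns, Stmn1 and Cenpa excepted, and higher in the heart injury columns and in the brain infarct fibroblast-like column, whereas Mcm4, Rrm1, Pcna and Smc4 have similar colours across most columns.

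Pericyte-like cells of the heart had a member sum of 370.0 CPM in sham (296 to 457), 1560.1 CPM in infarct (1522 to 1599) and 2443 CPM in peri-infarct (2385 to 2501). Their sham value rests on 143 cells, 232420 UMIs and 86 member UMIs, so that 1 UMI was worth more than 4 CPM. On the added-1 scale 38 and 41 members were at least 2-fold higher in infarct and in peri-infarct, against a background of 9.31% and 9.89%, and none was 2-fold lower. But 28 members had no UMI in sham, and at their bounds the counts were 19 and 30 and the medians 0.55 and 1.34, in place of 3.45 and 4.16. With sham set at that floor, 3 members also counted as 2-fold lower in infarct, and 0 in peri-infarct. Of the members, 27 and 35 passed the filter on the mean, and all tested genes had a median of −0.03 and 0.00. The log2 differences of the sums, 2.08 and 2.72, were 1.36 and 2.05 as means over cells, and the latter was 2.02 with a stricter gate and 2.13 with thinned cells.

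All 10 cyclins and kinases had 0 UMIs in sham pericyte-like cells, and their sum was at least 13.0-fold higher in infarct (167 CPM) and at least 20.8-fold higher in peri-infarct (269 CPM). Mki67 stood at 66.4 CPM in infarct and 106 CPM in peri-infarct, at least 5.14-fold and 8.19-fold above the floor. Prc1, which bundles the microtubules of the dividing cell, stood at 73.8 and 140 CPM, and Cenpf at 81.2 and 129 CPM, each with 0 UMIs in sham. Cdk1 stood at 42.8 and 83.8 CPM and Ube2c at 60.2 and 98.9 CPM, likewise with none in sham. Ccnb1 had 63 and 78 UMIs, Rrm2 had 22 and 31 and Tpx2, a spindle assembly factor, had 144 and 151, and 0 in sham. Ccnb2, cyclin B2, stood at 35.9 and 29.8 CPM. Top2a stood at 62.4 and 97.8 CPM against 1 sham UMI.

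The members with most sham UMIs in pericyte-like cells were Hmgb2 (26), Smc4 (13), Stmn1 (9), Rrm1 (8), Mcm4 (6) and Cenpa (4). Mcm4 stood at 25.8, 14.4 and 27.0 CPM, Rrm1 at 34.4, 25.8 and 39.6 CPM, Mcm3 at 12.9, 11.1 and 20.1 CPM, and Pcna at 12.9, 17.1 and 21.2 CPM, from 3 to 8 sham UMIs each. Mcm5 had 2 sham UMIs and stood at 8.61, 11.1 and 22.7 CPM. The counting intervals of their folds from sham to infarct all include no difference. Stmn1 stood at 38.7, 124 and 175 CPM and Hmgb2 at 112, 164 and 273 CPM. Between the areas the sum was 0.639-fold (0.617 to 0.661) in infarct, and 5 members were 2-fold lower there, beside a background of 0.498%. They include Cdc20 (26.0 against 57.5 CPM), Aurka, a centrosome kinase (5.45 against 14.0 CPM), Mcm2 (4.95 against 14.4 CPM) and Spc25, of the kinetochore (9.91 against 27.3 CPM). Plk1, polo-like kinase, and Ccnb2 were the only members with the higher level in infarct.

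Smooth-muscle-like cells of the heart had a member sum of 352 CPM in sham (331 to 374), 2226 CPM in infarct (2177 to 2276) and 1263 CPM in peri-infarct (1218 to 1309). Of the members 42 and 37 were at least 2-fold higher than in sham, against a background of 8.55% and 4.06%, with the same counts at their bounds and none 2-fold lower. The medians of 3.89 and 3.04 (3.75 and 2.81 with bounds) stand against 0.13 and 0.12 for all genes. The peri-infarct sum rests on a single cell for 39.9% of its member UMIs, and without that cell it was 774 CPM, with 34 members higher. In infarct the corresponding cell held 7.78%. The log2 difference of the peri-infarct sum, 1.84, was between 0.77 and 1.15 without that cell, with the highest UMI totals left out, with up to 20% mitochondrial UMIs, as a mean over cells or with thinned cells. That of infarct, 2.66, was 1.67 with the highest UMI totals left out, 1.65 as a mean over cells and 1.87 with thinned cells.

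The members with the largest differences had few or no UMIs in sham. Cenpf stood at 0, 103 and 90.1 CPM, Ube2c at 0.344, 106 and 52.7 CPM, and Mki67 at 0.687, 95.2 and 72.7 CPM. Cdca8 (borealin, a partner of survivin) stood at 0, 62.1 and 23.0 CPM and Birc5 at 0, 58.7 and 23.4 CPM. All of the cyclins and kinases, centromere and spindle members were called higher in both areas. Top2a stood at 2.06, 102 and 42.1 CPM, Cdk1 at 1.03, 57.9 and 24.7 CPM and Ccnb1 at 0.344, 28.2 and 25.1 CPM. Rrm1 stood at 82.1, 50.3 and 56.5 CPM, Mcm4 at 18.2, 20.9 and 8.93 CPM and Pcna at 17.5, 22.0 and 12.3 CPM, which were less than 2-fold from sham, except Mcm4 in peri-infarct on the plain scale.

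Between the areas of smooth-muscle-like cells, the members called changed with 1 cell. The sum was 1.76-fold higher in infarct (1.69 to 1.84) and 19 members were 2-fold higher, beside a background of 2.20%. The largest differences were of S phase genes: Tk1 (35.9 against 6.38 CPM), Tyms (58.5 against 12.3 CPM), Rrm2 (26.3 against 7.23 CPM), Mcm6 (32.2 against 9.35 CPM), Mcm3 (22.6 against 6.38 CPM) and Mcm2 (16.4 against 5.53 CPM). All 6 licensing members were called, and 3 of 10 cyclins and kinases. Ccnb1, Kif20a and Kif23, the latter 2 being kinesins of cytokinesis, and Rrm1 were within 0.17. Without the peri-infarct cell with most member UMIs the count was 40 in place of 19, with all 10 cyclins and kinases called, and the sum differed by 1.52 in place of 0.82. Without the infarct cell with most it was 18, and without both 37. With up to 20% mitochondrial UMIs 41 members were called and the sum differed by 1.62. The contrast between roles was thus not held without that peri-infarct cell.

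Endothelial-like cells of the heart had a member sum of 460.0 CPM in sham (421 to 502), 1255 CPM in infarct (1205 to 1307) and 2086 CPM in peri-infarct (2059 to 2114). Of the members 34 and 39 were 2-fold higher than in sham, against a background of 5.63% and 5.62%, or 32 and 39 at their bounds. The log2 differences of the sums, 1.45 and 2.18, were 0.68 and 1.46 as means over cells and 0.79 and 1.45 with thinned cells. Ube2c stood at 0, 59.6 and 66.0 CPM, Birc5 at 0, 43.9 and 70.2 CPM, Mki67 at 0.892, 48.2 and 88.5 CPM and Cenpf at 0.892, 40.6 and 90.2 CPM. Mcm4 (15.2, 9.75 and 20.001 CPM), Pcna (24.1, 18.4 and 30.5 CPM), Rrm1 (31.2, 29.8 and 40.2 CPM) and Mcm3 (25.9, 27.6 and 38.4 CPM) stood within 2-fold of sham. Stmn1 stood at 57.9, 120 and 235 CPM and Hmgb2 at 135, 193 and 360 CPM. Against peri-infarct, 9 members were 2-fold lower in infarct, beside a background of 0.546%, led by Bub1, a spindle checkpoint kinase (1.08 against 6.51 CPM), Mcm2, Mcm5 and Anln, anillin of the cleavage furrow. A single infarct cell held 17.997% of the member UMIs, and without it the count was 22, or 21 with the top peri-infarct cell left out as well.

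Mesothelial-like cells, gated on genes such as Msln and Upk3b, had a member sum of 427 CPM in sham (374 to 484), 2327 CPM in infarct (2288 to 2367) and 1820.4 CPM in peri-infarct (1785 to 1856). In them 41 and 40 members were 2-fold higher than in sham, against a background of 9% and 8.33%, or 40 and 35 at their bounds, since 21 members had no sham UMI. Ube2c stood at 0, 166 and 84.9 CPM, the highest Ube2c level of any heart class. Cenpf stood at 0, 100.8 and 76.1 CPM and Prc1 at 0, 88.8 and 55.3 CPM. Rrm1 stood at 17.8, 85.9 and 69.7 CPM here, while Stmn1 was already at 134 CPM in sham and stood at 198 and 200.2 CPM after ligation. No member was 2-fold higher in infarct than in peri-infarct, where the background was 0.362%, although the summed level was 1.28-fold (1.25 to 1.31). With the highest UMI totals left out the peri-infarct count against sham was 26 in place of 40. The log2 differences of the sums from sham, 2.45 and 2.09, were then 1.30 and 0.69, with thinned cells 1.70 and 1.27, and without Stmn1 and Hmgb2 3.32 and 2.91.

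Macrophage-like cells of the heart, compared only between the areas, had a member sum of 878 CPM in infarct (838 to 921) and 1483 CPM in peri-infarct (1426 to 1542). In infarct 14 members were 2-fold lower, beside a background of 2.59%, led by Kif11, the motor that separates spindle poles (3.02 against 12.3 CPM), Rrm2 (6.54 against 21.1 CPM), Prc1 (12.1 against 34.1 CPM) and Cenpf (11.1 against 31.1 CPM). Mki67 stood at 59.3 and 108 CPM and Mcm4 at 13.1 and 8.22 CPM. A single cell held 22.3% of the peri-infarct member UMIs, and without it 3 members were called, against 24 without the top infarct cell and 12 without both. The log2 difference of the sums, −0.76, was −0.15 with the highest UMI totals left out.

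**Figure D3:**
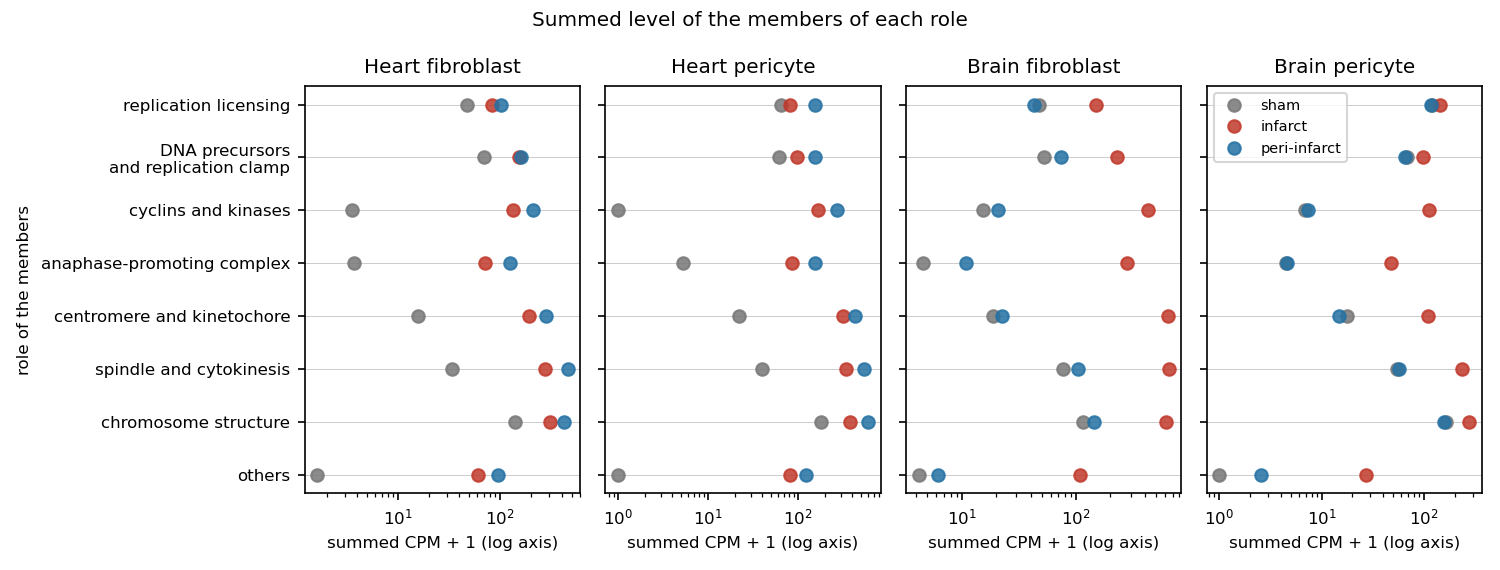
Summed level of the members of each role (rows) as CPM + 1 on a log axis, for fibroblast-like and pericyte-like cells of heart and brain, with 1 point per library coloured by area. In heart fibroblast-like cells cyclins and kinases go from 2.57 to 133 and 210 CPM and replication licensing from 46.5 to 82.8 and 99.9 CPM; in the brain the peri-infarct points lie near the sham points.

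Fibroblast-like cells of the brain had the highest member sum of the gated classes, 3076 CPM in infarct (3061 to 3092), against 327 CPM in sham (305 to 351) and 416 CPM in peri-infarct (395 to 438), from 1358, 343 and 371 cells. In infarct 41 members were 2-fold higher than in sham and 44 than in peri-infarct, against a background of 9.39% and 8.79%, with the same counts at their bounds and none 2-fold lower. The medians of 3.91 and 3.50 stand against −0.49 and −0.24 for all tested genes. Without shared barcodes the infarct sum was 2514 CPM, and TMM scaling, whose factors were 1.15 for sham and 0.715 for infarct, raised its log2 difference from 3.23 to 3.91.

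The cells behind this gate differed between the libraries in more than the cell cycle. Ptgds, a leptomeningeal enzyme, stood at 31736 CPM in sham, 265 CPM in infarct and 24771 CPM in peri-infarct. The summed arachnoid markers stood at 32450.5, 391 and 25497 CPM, but Ptgds is itself among these 5 markers and makes up most of each sum. Fibroblast markers stood at 7977, 19964 and 7711 CPM, with none of the 10 at 0 in any of the 3 libraries. Sham and peri-infarct cells of this gate thus carried the meningeal marker Ptgds at levels far above those of the infarct cells, and the part of this in the member levels was not tested.

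The sum of every role was higher in the infarct core. Cyclins and kinases summed to 14.3, 421 and 19.7 CPM in sham, infarct and peri-infarct, 29.4-fold above sham (21.2 to 42.0). Cdk1 stood at 0.398, 100.5 and 6.38 CPM and Ccnb1 at 2.79, 49.3 and 1.45 CPM. Ube2c stood at 1.20, 205 and 7.25 CPM and Birc5 at 0.398, 235 and 8.12 CPM, the highest Birc5 level of the gated classes. The chromosomal passenger partner Cdca8 stood at 0, 80.1 and 2.90 CPM. Cdca3, a trigger of mitotic entry, stood at 0, 57.8 and 4.35 CPM and Top2a at 0.398, 72.9 and 4.35 CPM. Mki67 stood at 3.19, 48.5 and 0.870 CPM, which is close to its heart infarct level, although the summed members stood higher than in any heart class. Against peri-infarct the largest log2 differences were of Cenpa, the centromeric histone (5.57), Cenpe, a kinetochore motor (5.09), Hmmr (5.03), Mki67 (4.72), Birc5 (4.69) and Ube2c (4.64).

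Licensing summed to 46.6, 148 and 41.5 CPM, 3.17-fold above sham (2.64 to 3.83), and precursors and clamp to 51.8, 229 and 72.8 CPM. Mcm5 stood at 2.79, 21.4 and 2.61 CPM and Rrm2 at 0.797, 60.6 and 6.38 CPM. Tyms stood at 3.98, 73.8 and 8.41 CPM. Pcna was the 1 member with a lower level in infarct than in sham and in peri-infarct, at 37.0, 28.1 and 46.4 CPM, a log2 difference from sham of −0.38 beside the median of −0.49 over all genes. Mcm4 (15.5, 29.6 and 14.2 CPM), Mcm7 (16.7, 32.0 and 10.4 CPM) and Smc4 (41.4, 73.6 and 29.6 CPM), were less than 2-fold higher than in sham on the log2(CPM + 1) scale. Hmgb2 stood at 61.3, 396 and 92.8 CPM and Stmn1 at 73.3, 323 and 87.6 CPM.

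Around the infarct, these cells stood near sham. Here 11 members were 2-fold higher than in sham and 3 lower, beside a background of 1.46% higher, and 9 were higher at their bounds. Of the 8 members that passed the filter on the mean none was called higher. A single cell, whose 45 members were all detected, held 27.7% of the member UMIs, and without the top cells the count was 2 and the sum 303 against 315 CPM. Birc5, Cdk1, Rrm2 and Ube2c, which led the list at 8.12, 6.38, 6.38 and 7.25 CPM, had 22 to 28 UMIs each in this library. Without shared barcodes the sum was 310 against 339 CPM and 4 members were called. Cenpf stood at 10.4 CPM in sham and 4.06 CPM in peri-infarct.

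Pericyte-like cells of the brain, in contrast to those of the heart, had a high member level in the infarct core only. Their sums were 429 CPM in sham (411 to 449), 1044 CPM in infarct (991 to 1099) and 421 CPM in peri-infarct (396 to 447), from 1449, 413 and 1052 cells. In infarct 33 members were 2-fold higher than in sham and 35 than in peri-infarct, against a background of 3.55% and 2.93%, or 33 and 34 at their bounds. The medians were 2.13 and 2.19, against −0.09 and −0.06 for all genes. A single infarct cell held 17.9% of the member UMIs, and without the top cells the infarct sum was 863 CPM and the counts 31 and 32. The log2 differences of the sums, 1.28 and 1.31, were 0.63 and 0.71 as means over cells and 0.65 and 0.60 with thinned cells. Of the members, 19 and 20 passed the filter on the mean, and 10 and 12 of these were called.

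These levels rest on few UMIs. Cyclins and kinases summed to 5.92, 111 and 6.35 CPM, 18.7-fold above sham (12.4 to 29.4). Ube2c had 0, 36 and 1 UMIs, or 0, 25.9 and 0.397 CPM, at least 39.4-fold above the floor of sham. Mki67 had 0, 24 and 1 UMIs and stood at 17.3 CPM in infarct, and Birc5 had 1, 32 and 2 UMIs and stood at 23.0 CPM there. Cdk1 stood at 1.32, 34.6 and 1.98 CPM, 26.3-fold above sham (11.2 to 75.2). Top2a stood at 0.219, 14.4 and 1.59 CPM, Ccnb1 at 0.219, 7.20 and 0 CPM and Ccnb2 at 0.219, 17.3 and 0 CPM. Licensing summed to 119, 143 and 117 CPM, 1.20-fold above sham (1.01 to 1.41). Mcm4 and Mcm6 had their highest sham levels of the gated classes here, at 41.0 and 34.4 CPM, with 36.0 and 44.7 CPM in infarct, and Pcna stood at 40.6, 35.3 and 40.9 CPM. Mcm5 stood at 2.63, 11.5 and 2.78 CPM and Rrm2 at 2.85, 11.5 and 1.59 CPM. Stmn1 stood at 41.4, 132 and 46.0 CPM and Hmgb2 at 113, 204 and 121 CPM.

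Peri-infarct pericyte-like cells had a member sum 0.980-fold that of sham (0.908 to 1.06), and 2 members were called higher, beside a background of 0.436%. They are Top2a, with 4 UMIs against 1, and Cdca3, with 3 against 0, and at its bound Cdca3 is no longer called. Of the 9 members that passed the filter on the mean none was called higher. Mki67 had 1 UMI against 0. Among the members with 20 or more UMIs the extremes were Mcm2 (5.48 and 7.94 CPM) and Smc2, a condensin subunit (16.0 and 8.33 CPM).

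Endothelial-like cells of the brain had member sums of 782, 960 and 773 CPM, and 29 members were 2-fold higher in infarct than in sham and 30 than in peri-infarct, against a background of 3.69% and 3.56%. With 91 infarct cells, 1 cell held 43.5% of the member UMIs. Without the top cells the infarct sum was 606 CPM, below the 771 CPM of sham, and the counts were 10 and 14. At their bounds the counts were 20 and 23. Only 13 and 12 members passed the filter on the mean, of which 3 and 3 were called higher and 2 and 1 lower. The log2 differences of the sums, 0.29 and 0.31, were −0.35 and −0.35 without the top cells and 1.26 and 1.42 without Stmn1 and Hmgb2. Top2a, with 0, 21 and 1 UMIs, and Prc1, with 3, 18 and 1, led the list. In peri-infarct 3 members were higher than in sham, beside a background of 1.52%, or 2 at their bounds, and 3 were lower, and of the 11 that passed the filter 1 was higher. Stmn1 stood at 432, 287 and 407 CPM in sham, infarct and peri-infarct. Mki67 had 0 UMIs in sham and in peri-infarct and 11 in infarct. Hmgb2 stood at 134, 154 and 172 CPM. Pcna stood at 39.9, 13.7 and 31.5 CPM and Mcm3 at 16.0, 5.15 and 13.8 CPM, the 2 members that were 2-fold lower in infarct than in sham.

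Smooth-muscle-like cells of the brain stood at 246 CPM in sham (217 to 279) and 267 CPM in peri-infarct (225 to 314), and none of the 10 cyclins and kinases had a UMI in either. In peri-infarct 2 members were called higher, beside a background of 2.48%, or 1 at its bound, and 2 lower, Cenpe and Mcm3, each with 0 UMIs against 3. Of the 9 members that passed the filter on the mean none was called higher. Stmn1 (19.4 and 38.9 CPM) had the largest difference of the 8 members with 20 UMIs. Macrophage-like cells had 1924 CPM in infarct (1870 to 1979) and 1247 CPM in peri-infarct (1128 to 1376), and 20 members were higher in infarct, beside a background of 5.64%, or 16 at their bounds. A single cell held 49.6% of the peri-infarct member UMIs, its barcode was shared with another library, and without the top cells the peri-infarct sum was 667 CPM and the count 36. The log2 difference of the sums, 0.63, was between 1.37 and 1.68 without the top cells, without shared barcodes, with the highest UMI totals left out or with thinned cells. Cdc20 had 49 UMIs in infarct and 0 in peri-infarct, and Mki67 stood at 53.2 and 37.7 CPM.

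The UMIs of the members were then located among the cells. For each member, cells were selected by 3 or more of the other 44 members after thinning, and the share of that member's UMIs that lay in those cells was taken, which is a description since the members share cells. In heart infarct fibroblast-like cells the selected cells held 8.49% to 8.87% of all UMIs and a median of 86.2% of a member's UMIs. In peri-infarct they held 10.8% to 11.0% of all UMIs and a median of 93.4%. In brain infarct fibroblast-like cells they held 29.8% to 32.0% of all UMIs and a median of 87.3%. The members thus sat mostly in the same minority of cells, which was larger in brain infarct, but not equally so.

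Licensing and clamp members were among the most widely spread. Mcm4 had 26.5%, 32.6% and 46.7% of its UMIs in the selected cells of these 3 libraries, Pcna 28.4%, 36.6% and 48.6%, and licensing had medians of 33.5%, 45.04% and 54.0%. Cyclins and kinases had medians of 93.0%, 97.1% and 90.3%, and Ccnb1, with 95.4%, 98.5% and 90.8%, was nearly confined to the selected cells in the heart. Stmn1 (65.8%, 82.7% and 53.9%), Hmgb2 (57.8%, 67.9% and 75.3%) and Smc4 (35.7%, 54.3% and 65.3%) also had many UMIs elsewhere. In pericyte-like cells the medians were 86.4% in heart infarct, 94.9% in heart peri-infarct and 76.7% in brain infarct, where the selected cells held 5.89% to 6.48% of all UMIs. The members with flat levels from sham to injury are thus among those with the widest spread over cells. A wide spread was not limited to flat members. In heart infarct fibroblast-like cells, Mcm6 had 28.4% and Tyms 33.5% of their UMIs in the selected cells. Their levels there were 20.1 and 72.8 CPM, against 7.63 and 15.0 CPM in sham.

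**Figure D4:**
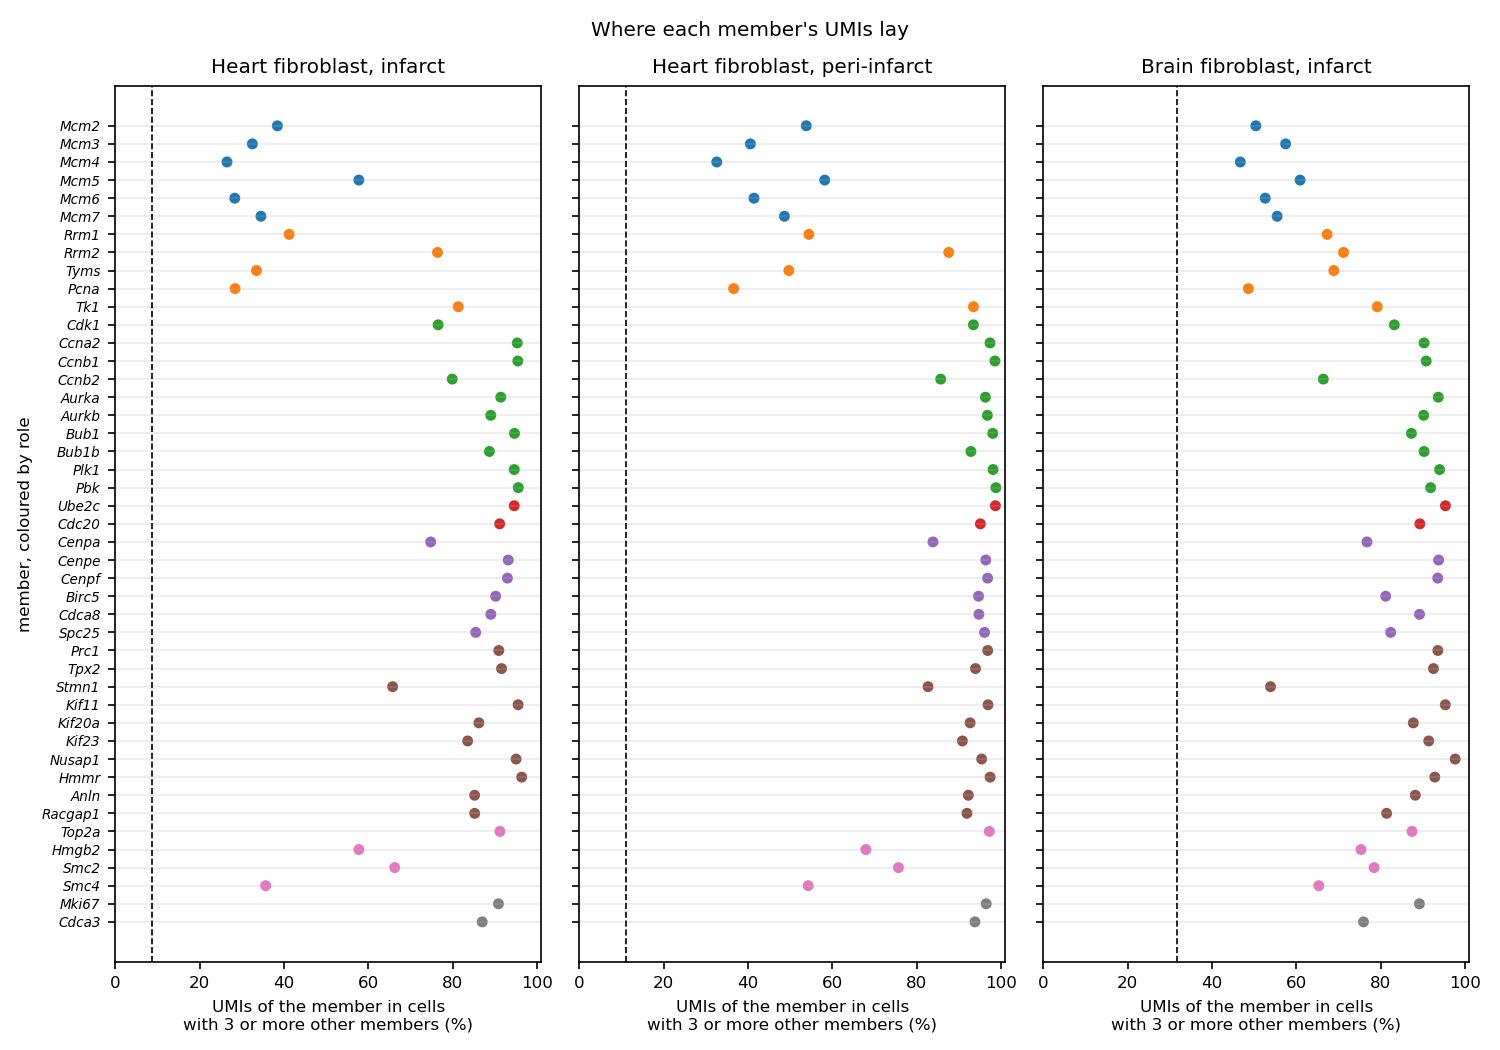
Percent of each member's UMIs (x axis) that lay in cells with 3 or more other members detected after thinning, for fibroblast-like cells of 3 injury libraries, with points coloured by role. The dashed line is the percent of all UMIs in those cells; replication licensing lies between 26.5% and 57.8% in heart infarct, and most cyclins, kinases, centromere and spindle members lie above 80%.

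Genes outside the 45 that regulate entry into the cycle were read in the same cells, from lists of 21 restriction point genes (cyclins D and E, their kinases, the Rb and E2F families, Myc, Mybl2, Foxm1 and Lin54) and 13 inhibitors of division. Between libraries they moved less than the members. In heart fibroblast-like cells 6 and 7 of the 21 were 2-fold higher in infarct and in peri-infarct than in sham and none lower, with median differences of 0.48 and 0.67, and of the 13 inhibitors 3 and 1 were higher and 3 and 2 lower. Of all genes that passed the filter, 6.13% and 3.16% were higher and 7.02% and 4.27% lower. Here and below the regulator counts are over the full lists, with no filter on the mean. Several of these genes lie under that mean, so the background is not matched to them in level. E2f1 stood at 1.48, 9.31 and 9.80 CPM and Foxm1, the late activator, at 0.857, 5.85 and 8.25 CPM. Cdkn1a (p21) stood at 476, 173 and 280 CPM and Btg2 at 1370, 537 and 647 CPM, both inhibitors that dissociation of tissue also induces. Cdkn2a stood at 0.234, 6.32 and 4.10 CPM. In brain infarct fibroblast-like cells 10 of the 21 were higher than in sham and 5 lower, with Ccne1 (cyclin E1) at 1.99, 25.1 and 3.48 CPM, Cdk4 at 113, 407 and 182 CPM and Rbl2 (p130, of resting cells) at 42.2, 6.30 and 32.2 CPM. Of all genes that passed the filter, 9.39% were higher in this comparison and 31.6% lower. Cdkn1c (p57) stood at 576, 121 and 1156 CPM.

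Within a library, cells with 3 or more members were set against the rest of their class, again as a description. In heart infarct fibroblast-like cells (373 and 5613 cells) 12 of the 21 restriction point genes were 2-fold higher in the former, and in peri-infarct (281 and 4505 cells) 13, beside 5.74% and 7.21% of all genes that passed the filter. Foxm1 stood at 51.6 against 1.40 CPM in infarct and 62.3 against 1.54 CPM in peri-infarct, and Mybl2 (B-MYB) at 18.8 against 0.549 CPM and 24.9 against 0.547 CPM. E2f8, a repressor of late S phase, stood at 17.7 against 0.254 CPM and 25.0 against 0.0781 CPM. Of the inhibitors, Cdkn2c (p18) at 137 against 28.1 CPM and Cdkn2d (p19) at 150 against 21.7 CPM were higher in the infarct cells with 3 or more members, and Btg2 was lower at 273 against 562 CPM. Cyclin D1, Ccnd1, stood at 87.0 against 32.0 CPM in infarct and 202 against 82.3 CPM in peri-infarct, whereas cyclin D2, Ccnd2, stood at 104 against 156 CPM and 94.1 against 162 CPM. The cells with 3 or more members were deeper before thinning, with medians of 17943 against 11998 UMIs in infarct and 22051 against 9824 UMIs in peri-infarct.

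These cells held the markers of their class at a lower level than the rest of the class. The genes named here, Dcn, Col1a1, Rgs5, Pdgfrb, Acta2, Pecam1 and Lyz2, are all on the marker lists of the gates. That the cells carried markers of their class and few of another was therefore set by the gate. In heart infarct Dcn, a fibroblast proteoglycan, stood at 4962 CPM in cells with 3 or more members and 7363 CPM in the rest, and Col1a1 at 5263 and 6880 CPM. In heart infarct pericyte-like cells (46 and 849 cells) Rgs5, a pericyte marker, stood at 6046 and 11899 CPM, Pdgfrb at 950 and 1326 CPM, and Acta2, the actin of contractile cells, at 2321 and 1179 CPM. Pecam1, of endothelium, had 0 CPM in the former and 3.26 CPM in the latter, and Lyz2, of macrophages, 8.53 and 7.87 CPM. In brain infarct fibroblast-like cells (353 and 999 cells) Col1a1 stood at 6670 and 7333 CPM and Dcn at 848 and 1653 CPM, with 6 of the 21 restriction point genes 2-fold higher, beside 3.44% of all genes that passed the filter. Foxm1 stood at 25.9 and 3.26 CPM there, Cdkn1c at 62.9 and 148 CPM, and Ccnd1 at 17.0 and 24.7 CPM.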

How the data were processed

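The 6 libraries of tdTomato-sorted cells, 1 per group, were read as the deposited UMI counts per gene and barcode. Per the submitters' processing notes, Cell Ranger 3.0.2, Seurat 3 and the build mm10 were used by the authors; what each did is not given in the sources used here. No column of values was left unused (0). Cells with at least 500 genes and at most 10% mitochondrial UMIs were kept. A cell was put in a class when at least 3 markers were detected and their sum passed a level that was chosen from the marker values, for each organ on its own. Mixed cells, in which a second class passed its level at 0.5 or more of the first, were left out of the classes. This also stands in for a doublet caller, as none was run. Classes of at least 50 cells were used.

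UMIs were summed per class and library and scaled to CPM. Ratios used a pseudocount of 1 CPM, a 2-fold cut-off and, for the background, a mean of at least 10 CPM. Shares were taken after thinning each cell to 1000 UMIs (seed 1). Intervals are exact Poisson and Clopper-Pearson intervals at 95% and cover counting error only. The script was tested on simulated data. Python 3.11.15, numpy 2.4.6, scipy 1.17.1 and pandas 2.3.3 were used, and edgeR 4.0.16 in R 4.3.3 for TMM factors as an alternative; 18 alternatives were planned. The text names 9 members in the main comparisons, and in each comparison the 6 highest and 4 lowest ratios among members with 20 or more UMIs, from which the main ones are given; other members named were chosen after their values were seen. The members, marker lists and regulator lists were chosen with earlier results of these data known.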

Additional observations from a re-analysis of the deposited data

Results flagged for a closer look

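In the 4 classes compared in both organs, the summed CPM of the infarct and the peri-infarct area had opposite orders in heart and brain. The share of cells with 3 or more members had opposite orders only in pericyte-like and macrophage-like cells. In fibroblast-like cells the share was higher in infarct in both organs (6.23% against 5.87% in heart, 26.1% against 0.539% in brain). In endothelial-like cells it was lower in infarct in both (4.56% against 8.70%, and 1.14% against 1.61%). Not all of these orders were stable. The heart fibroblast-like intervals overlap, and the order did not hold with 5 or more members or with thinning to 500 UMIs. The brain endothelial-like intervals also overlap, and the order held in 11 of 16 settings. On the log2 scale of the summed CPM, infarct minus peri-infarct was −0.65 in heart and 1.31 in brain for pericyte-like cells, and −0.54 in heart and 2.89 in brain for fibroblast-like cells. For endothelial-like cells it was −0.73 and 0.31, and for macrophage-like cells −0.76 and 0.63. In the heart it was positive in the other two classes, at 0.82 for smooth-muscle-like and 0.35 for mesothelial-like cells, which were not compared between the areas in the brain. The difference between the organs was not tested, since each value rests on 1 library a group. The brain endothelial-like value had the other sign without the cell with most member UMIs (−0.35), and the heart fibroblast-like value without the highest UMI totals (0.14).

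Cells outside the gated classes, which enter no comparison, also held members. Of the cells that passed no gate, 25.0% in heart infarct (22 of 88) and 26.3% in brain infarct had 3 or more members, against 0 of 39 in heart sham, which allows up to 7.69%, and 0.885% in brain sham. Of the cells left out as mixed, 8.11% in infarct and 3.92% in peri-infarct of the heart had 3 or more, against 0.366% in heart sham.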

How the results depend on the processing

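No paired analysis was possible because each group is 1 library. Counts of members past 2-fold that moved by over 1.5 times are given here, and the cause was not tested. For brain endothelial-like infarct over peri-infarct, the 30 higher became 19 with a pseudocount of 5, 14 with the cell with most member UMIs of each class and library left out, 16 with the mean over cells, 7 with cells thinned to 1000 UMIs. For brain endothelial-like infarct over sham, the 29 higher became 19 with a pseudocount of 5, 10 with the cell with most member UMIs of each class and library left out, 11 with the mean over cells, 9 with cells thinned to 1000 UMIs. For brain endothelial-like peri-infarct over sham, the 3 higher became 1 with a 3-fold cut-off, 7 with a pseudocount of 0.5 or cells thinned to 1000 UMIs, 6 with at least 1000 genes per cell or the highest UMI totals left out or shared barcodes left out or the cell with most member UMIs of each class and library left out. For brain fibroblast-like peri-infarct over sham, the 11 higher became 2 with a pseudocount of 5 or the cell with most member UMIs of each class and library left out, 18 with a pseudocount of 0.5, 20 with at least 200 genes per cell, 3 with the highest UMI totals left out, 17 with a stricter gate, 4 with shared barcodes left out. For brain macrophage-like infarct over peri-infarct, the 20 higher became 36 with the highest UMI totals left out or shared barcodes left out or the cell with most member UMIs of each class and library left out, 33 with the mean over cells, 31 with cells thinned to 1000 UMIs. For heart mesothelial-like infarct over peri-infarct, the 0 higher became 22 with the highest UMI totals left out, 5 with the mean over cells, 15 with cells thinned to 1000 UMIs. For heart mesothelial-like peri-infarct over sham, the 40 higher became 26 with the highest UMI totals left out. For brain pericyte-like infarct over peri-infarct, the 35 higher became 23 with cells thinned to 1000 UMIs. For brain pericyte-like peri-infarct over sham, the 2 higher became 0 with a 3-fold cut-off or a pseudocount of 5 or shared barcodes left out or TMM scaling or the mean over cells, 1 with cells of 2 gates kept or the cell with most member UMIs of each class and library left out or cells thinned to 1000 UMIs. For brain smooth-muscle-like peri-infarct over sham, the 2 higher became 0 with a 3-fold cut-off or a pseudocount of 5, 1 with cells of 2 gates kept, 4 with cells thinned to 1000 UMIs. For heart smooth-muscle-like infarct over peri-infarct, the 19 higher became 5 with a 3-fold cut-off, 41 with up to 20% mitochondrial UMIs, 11 with cells of 2 gates kept, 37 with the cell with most member UMIs of each class and library left out. For heart endothelial-like infarct over peri-infarct, the 9 lower became 2 with a 3-fold cut-off, 4 with a pseudocount of 5, 5 with up to 20% mitochondrial UMIs, 21 with a stricter gate or the cell with most member UMIs of each class and library left out, 16 with the mean over cells, 18 with cells thinned to 1000 UMIs. For heart fibroblast-like infarct over peri-infarct, the 1 lower became 0 with a 3-fold cut-off or a pseudocount of 5 or the highest UMI totals left out or the mean over cells or cells thinned to 1000 UMIs. For heart macrophage-like infarct over peri-infarct, the 14 lower became 1 with a 3-fold cut-off, 5 with a pseudocount of 5, 9 with up to 20% mitochondrial UMIs or the mean over cells, 2 with the highest UMI totals left out. For heart pericyte-like infarct over peri-infarct, the 5 lower became 0 with a 3-fold cut-off or cells of 2 gates kept, 2 with a pseudocount of 5, 3 with a stricter gate, 14 with the mean over cells, 15 with cells thinned to 1000 UMIs. The alternatives on shared barcodes, on copies of a barcode that are over 10 times shallower and on the cell with most member UMIs, in both libraries or in 1 at a time, were chosen after seeing the data. The counts against sham in heart fibroblast-like, pericyte-like, smooth-muscle-like and endothelial-like cells, and for infarct against sham in brain fibroblast-like and pericyte-like cells, stayed within 1.5 times under the alternatives that gave a value. The bounds for members with no UMI were not among these alternatives, and at them the heart pericyte-like infarct count was 19 in place of 38. The log2 difference of the sums changed sign under 1 or more alternatives in 7 comparisons: heart fibroblast-like infarct over peri-infarct, and in the brain peri-infarct over sham of 4 classes and both other endothelial-like comparisons. Depth limits the sham pericyte-like cells of the heart most, with 86 member UMIs.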
